A study of Mus musculus with 5 samples.

Results

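Potassium channel genes were taken here as every row whose gene symbol starts with Kcn, followed by lower-case letters and a digit. The deposited table of mouse embryonic stem (ES) cells held 78 such symbols among 10855 gene symbols, and another 13683 genes in it carried assembly IDs in place of names. Polyadenylated RNA was sequenced from 3 libraries labelled wildtype and 2 labelled as deleted for a super-enhancer (a dense cluster of enhancers) named -45, one of a pair of Nanog super-enhancers that the study's title names. The labels give every library the same growth and treatment text, 6 days of ethanol vehicle or of 4OHT (a tamoxifen form), and do not say which library had which. They do not say how the deletion was made, how many clones it was carried in, or whether libraries came from separate cultures, so every p-value here reflects variation among these 5 libraries, part or all of which may be technical.

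Potassium channels let potassium ions leave or enter a cell down their electrochemical gradient and so set its resting voltage. Voltage-gated channels open when the membrane depolarises, inward rectifiers pass potassium best near rest, two-pore channels leak at rest, and a further class opens when calcium or sodium rises inside the cell. Auxiliary subunits bind these pores and change their gating or their passage to the cell surface. The genes are best known in neurons, glia, heart and smooth muscle.

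By class, 33 of the 78 were voltage-gated pore genes, 12 were inward rectifiers (Kcnj), 10 were two-pore channels (Kcnk), 8 were calcium- or sodium-activated and 12 coded for auxiliary subunits. The remaining 3, Kcnq1ot1, Kcnmb4os1 and Kcnmb4os2, match the symbol rule but are RNAs named after a neighbouring channel gene and code for no channel.

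The part of the protein that selects potassium is a loop whose core reads threonine or serine, any residue, glycine, tyrosine or phenylalanine, glycine. In the longest complete coding sequence of each gene in GENCODE vM21 (GRCm38), this core was found in frame in 63 of 63 pore-forming members and in 0 of 12 auxiliary ones, against 571 of 21551 protein-coding genes (2.65%). It occurred once in 55 members and at 2 places in 8, all of them two-pore genes. The coding stretch of the loop is shown for 8 pore-forming genes that passed the test below, because all pore-forming members share this core. The core alone does not make a gene a potassium channel, since it also occurs in other protein-coding genes. Each stretch runs 5′ to 3′ on the coding strand, and the capitals mark the codons for glycine, tyrosine or phenylalanine, and glycine.
Kcns2, chr15:34839600-34839629, + strand: gtcagtatgaccacagttGGGTACGGAgat
Kcna7, chr7:45409449-45409478, + strand: gtcaccatgaccacggttGGCTATGGGgac
Kcng3, chr17:83587911-83587940, - strand: atctctatgactacagttGGCTATGGAgat
Kcnj10, chr1:172369290-172369319, + strand: gaatcccagaccaccatcGGCTATGGCttc
Kcnj14, chr7:45819630-45819659, - strand: gagacacagacgtccataGGCTATGGTgtg
Kcnn1, chr8:70850654-70850683, - strand: atcaccttcttgtccattGGCTATGGAgac
Kcnu1, chr8:25881378-25881407, + strand: gcaacaatgtcaactgttGGCTTTGGGgac
Kcnt2, chr1:140425266-140425295, + strand: gtgacattttctactgtgGGCTTTGGGgat
The middle codon reads phenylalanine in Kcnu1 and Kcnt2 and tyrosine in the other genes shown. The authors' build is mm9, so these GRCm38 positions belong to the sequences and not to the counts.

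Rows under channel gene symbols held between 0.00322% and 0.00374% of each library's counts, that is 3174 to 7964 counts of 93574214 to 213042064. All rows with symbols together held only 0.328% to 0.375%, and the rest lay under assembly IDs. The median level was 0.413 CPM over tested members and 0.446 CPM over all tested symbols, against 10.97 CPM over all 16259 tested genes. The low share was therefore not particular to channel genes but common to rows with symbols. The tested members' median was nevertheless far below that of all tested genes. A total of 41 genes had enough counts to test. The other 37 reached at most 51 counts over all 5 libraries, with a median of 18, and Kcna10, Kcnj1 and Kcnk9 had 0 counts. One count was worth 0.00463 to 0.0107 CPM, a count scaled to a library of fixed total after TMM correction, so a gene at 0 allows up to 3 counts, or 0.0139 to 0.0321 CPM per library, for counting error only.

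Among the 41 tested genes, 6 rose and 5 fell in the deleted libraries at an adjusted p under 0.05 (edgeR's quasi-likelihood F test, Benjamini-Hochberg over all 16259 tested genes). These 11 were 26.8% of the tested members, beside 31.8% of all tested symbols (18.9% higher and 12.9% lower) and 39.5% of all tested genes; the members' share is near that background. The 6 that rose were Kcns2, Kcnu1, Kcnn1, Kcnab2, Kcnj10 and Kcna7, and Kcnj14, Kcnt2 and Kcng3 were among the 5 that fell. The median log2 fold change, deleted minus wildtype, was -0.11 over the members and 0.07 over all tested symbols. The sign of the members' median depended on the setting. It was 0.02 when genes were kept by a mean of at least 0.1 CPM over all libraries, where that of symbols was 0.07. When 1 library was left out it lay between -0.14 and 0.04. Values of the groups did not overlap for 22 of the 41, beside 57.0% of tested symbols. Of the 41, 30 met the count filter in both groups, 10 only through the wildtype libraries and 1, Kcnd2, only through the deleted ones; all 11 called genes met it in both.

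**Figure D1:**
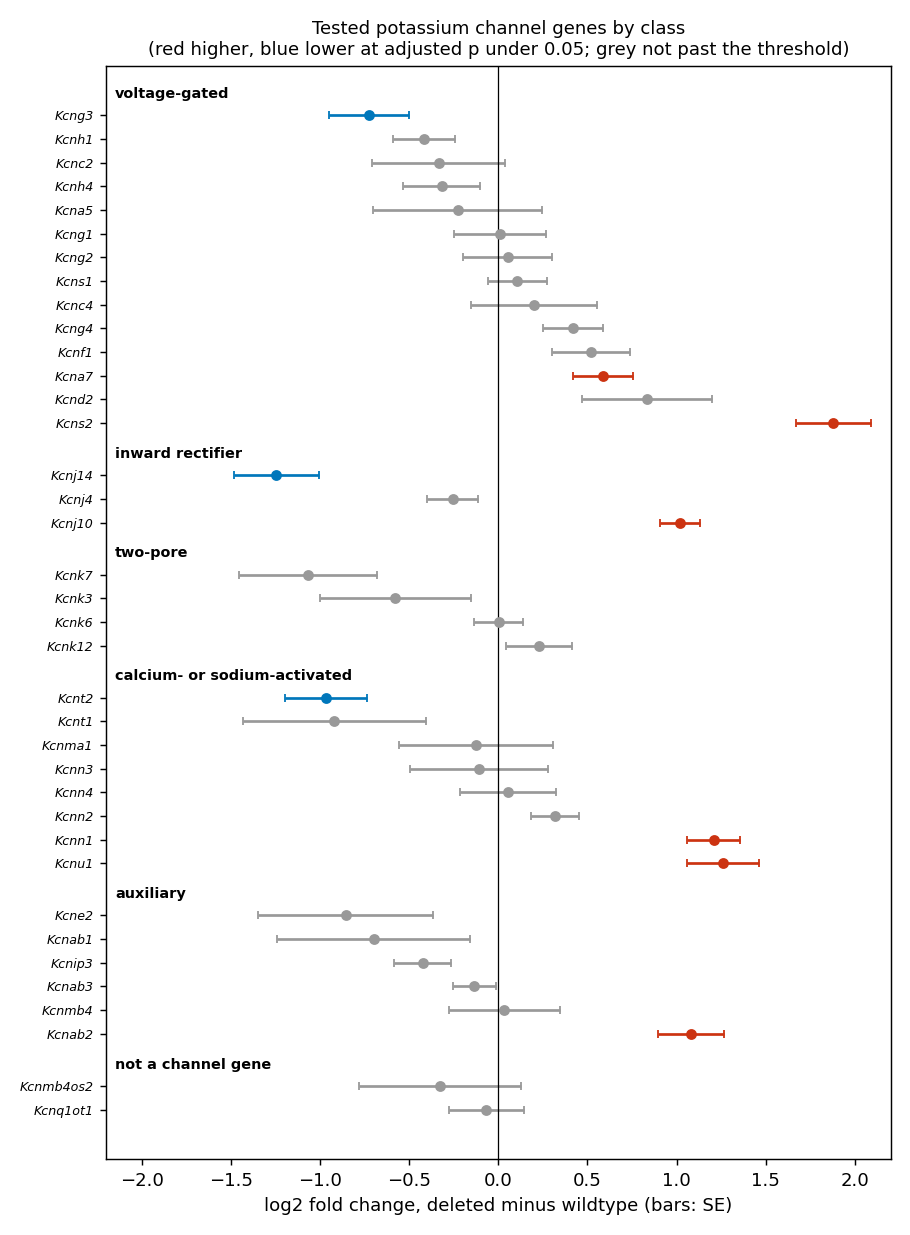
Log2 fold change (deleted minus wildtype, horizontal axis) with its standard error for 37 tested genes, grouped by class. Red marks 6 genes that rose, blue 3 that fell and grey 28 that did not pass the threshold; Kcns2 lies farthest right at 1.88 and Kcnj14 farthest left at -1.25.

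Of the voltage-gated pore genes, 18 of 33 were tested, and 2 rose and 3 fell. Kcns2 codes for an electrically silent subunit that forms no channel alone and modifies other voltage-gated channels. It had 0.177, 0.236 and 0.231 CPM in wildtype 1 to 3 and 0.707 and 0.888 CPM in deleted 1 and 2, from 22 to 88 counts per library. The deleted libraries lay above all wildtype ones, and the fitted change was 3.68-fold (log2 1.88, SE 0.21, edgeR adjusted p = 0.000492). Kcna7, a gene of the Shaker-type family, had 0.699, 0.884 and 0.764 CPM in wildtype and 1.03 and 1.31 CPM in deleted libraries, without overlap. It rose by 0.59 on the log2 scale, with an SE of 0.17 (adjusted p = 0.0272 in edgeR), and the call was lost without wildtype 1 (adjusted p = 0.0789) or without deleted 2 (log2 0.38, adjusted p = 0.228). On its chromosome, 7, the median over tested symbols was 0.21 on the same scale.

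Kcng3, another silent subunit, had 0.378, 0.385 and 0.398 CPM in wildtype and 0.268 and 0.202 CPM in deleted libraries. Its change of -0.73 on the log2 scale, with an SE of 0.22 (adjusted p = 0.0348 in edgeR), rested on 20 to 86 counts per library and did not pass in 8 of 13 alternative settings, including DESeq2 (adjusted p = 0.089) and the removal of any 1 library (adjusted p between 0.0581 and 0.195).

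The other silent-subunit genes that were tested did not pass: Kcnf1 stood at a log2 fold change of 0.52 (adjusted p = 0.0971 in edgeR), Kcng4 of 0.42 (adjusted p = 0.0841), and Kcns1, Kcng2 and Kcng1 of 0.11, 0.05 and 0.01. Kcnh1, of the ether-a-go-go family, stood at a log2 fold change of -0.42 (SE 0.17; adjusted p = 0.0923 in edgeR) and passed in its most counted bin (log2 -0.54, adjusted p = 0.0259). Kcnd2, which carries a fast transient current, had a larger but less certain value, 0.83 (SE 0.36), from low counts. Of the 15 untested voltage-gated genes, Kcnq1 had the most counts, 37 over the 5 libraries. Summed over the class, the level was 14.4 to 16.1 CPM in wildtype and 12.8 to 14.4 CPM in deleted libraries.

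**Figure D2:**
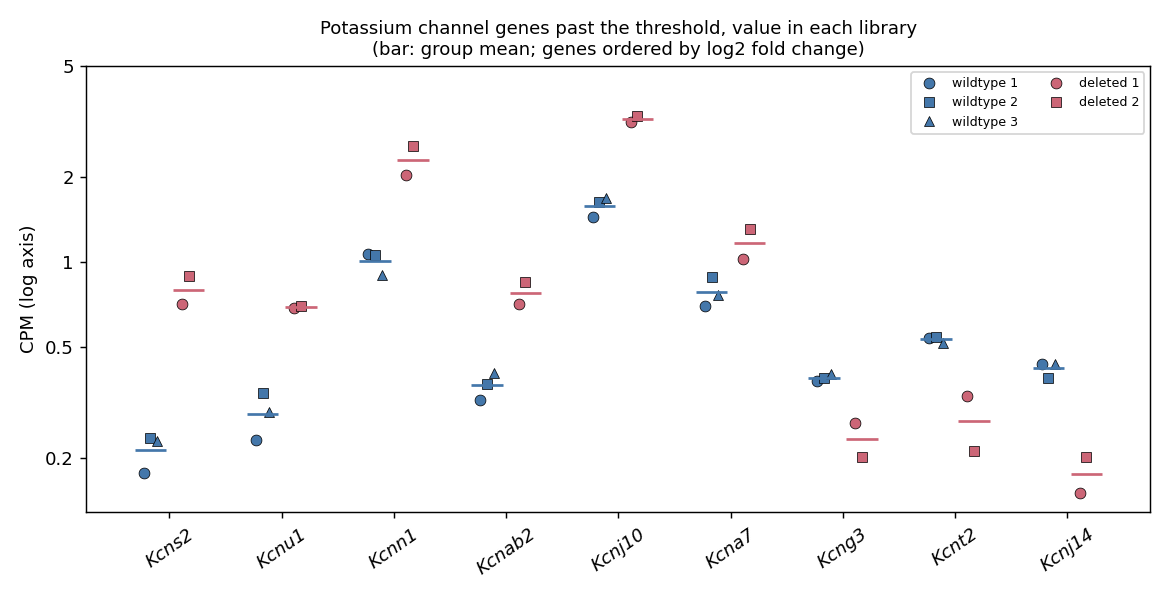
CPM in each library (log axis) for 9 called genes, ordered by log2 fold change; blue symbols are the 3 wildtype libraries, red the 2 deleted ones, and bars are group means. The groups do not overlap in any of the 9 genes, and the spans range from Kcnj14 at 0.15 to 0.435 CPM to Kcnj10 at 1.45 to 3.32 CPM.

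Of the inward rectifiers, 3 of 12 had enough counts to test; 1 rose and 1 fell. Kcnj10 codes for the channel with which glial cells take up potassium around active neurons. Its values were 1.45, 1.64 and 1.68 CPM in wildtype and 3.14 and 3.32 CPM in deleted libraries, from 180 to 364 counts per library. The deleted values were well above the wildtype ones (2.03-fold, log2 1.02, SE 0.11, edgeR adjusted p = 0.000426), and the call held in each of 13 alternative settings. Kcnj14, a strong inward rectifier best known in motor neurons of the brainstem, had 0.434, 0.385 and 0.435 CPM in wildtype and 0.150 and 0.202 CPM in deleted libraries. It was 2.37-fold lower without overlap (log2 -1.25, SE 0.24, edgeR adjusted p = 0.00508), from 14 and 20 counts in the deleted libraries; without deleted 1 the adjusted p was 0.0532.

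Kcnj4, a strong rectifier of forebrain neurons, had 1.26, 1.51 and 1.40 CPM in wildtype and 1.26 and 1.07 CPM in deleted libraries (log2 -0.26, SE 0.14, edgeR adjusted p = 0.197). The 9 untested inward rectifiers had 0 to 51 counts in all, the most in Kcnj2. Kcnj9, the gene next to Kcnj10 in the annotation, had 7, 3 and 9 counts in wildtype and 7 and 19 in deleted libraries and was not tested; without deleted 1 it entered the test and passed (log2 2.17, adjusted p = 0.0336), a value that rests on 1 deleted library. The class sum was 3.49 to 3.81 CPM in wildtype and 4.85 to 5.10 CPM in deleted libraries, which do not overlap. That difference lay in Kcnj10: without it, the class summed to 2.04, 2.16 and 2.12 CPM in wildtype and to a lower 1.71 and 1.78 CPM in deleted libraries.

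Of the two-pore channels, 4 of 10 were tested and 0 passed by edgeR, DESeq2 or limma-voom; 1 had an unadjusted p under 0.05 in edgeR. That gene was Kcnk7, a silent member of the family, with 0.129, 0.114 and 0.120 CPM in wildtype and 0.0643 and 0.0505 CPM in deleted libraries (log2 -1.07, SE 0.39, edgeR adjusted p = 0.0614), from 5 to 26 counts. Kcnk6 was the most counted of the class, with 1.77, 2.23 and 2.21 CPM in wildtype and 1.99 and 2.16 CPM in deleted libraries, fully overlapping. Its log2 fold change was 0.00 (SE 0.14) and took either sign with the setting. Kcnk12 and Kcnk3, the latter an acid-sensitive leak channel, had log2 fold changes of 0.23 (SE 0.19) and -0.58 (SE 0.42). Kcnk7 and Kcnk3 met the count filter only through the wildtype libraries, where both were higher. The 6 untested genes had at most 10 counts over the 5 libraries, in Kcnk13. The class sum was 2.62 to 3.19 CPM in wildtype and 2.83 to 3.06 CPM in deleted libraries.

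The calcium- or sodium-activated class was the one in which every gene, 8 of 8, was tested; 2 rose and 1 fell. Kcnn1 codes for a small-conductance channel that calcium opens after neuronal firing. It had 1.07, 1.06 and 0.902 CPM in wildtype and 2.04 and 2.59 CPM in deleted libraries, with no overlap (2.31-fold, log2 1.21, SE 0.15, edgeR adjusted p = 0.000752). Kcnu1 codes for the pH-sensitive channel of sperm, placed in this class by its family. It had 0.233, 0.341 and 0.292 CPM in wildtype and 0.686 and 0.697 CPM in deleted libraries (2.39-fold, log2 1.26, SE 0.20, edgeR adjusted p = 0.00234).

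Kcnn1 and Kcnu1 both lie on chromosome 8, where the median over 166 tested symbols was 0.52 on the log2 scale, against 0.07 over all tested symbols. The log2 fold changes of Kcnn1 and Kcnu1 exceeded that median by 0.69 and 0.74. Kcng4, the third tested member there, was 0.10 below it. The part of that chromosome-wide shift in the results for Kcnn1 and Kcnu1 was not tested.

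Kcnt2, a sodium-activated channel, had 0.539, 0.543 and 0.514 CPM in wildtype and 0.332 and 0.212 CPM in deleted libraries. It fell by 0.97 on the log2 scale (SE 0.23, edgeR adjusted p = 0.0129), and the call was lost without deleted 2 (log2 -0.69, adjusted p = 0.09). Its paralogue Kcnt1 stood at a log2 fold change of -0.92 (SE 0.51, adjusted p = 0.192 in edgeR). Wildtype 1 (0.0884 CPM) lay among its deleted values (0.107 and 0.0808 CPM), and without that library Kcnt1 passed (log2 -1.22, adjusted p = 0.0491 in edgeR). Kcnt1 met the count filter only through the wildtype libraries, where it was higher. Its lower value in deleted libraries thus adds no support to the call of Kcnt2. Kcnn2, a relative of Kcnn1, was the other well counted gene: it had 1.14, 1.36 and 1.31 CPM in wildtype and 1.68 and 1.48 CPM in deleted libraries, which do not overlap, and did not pass (log2 0.32, SE 0.13, edgeR adjusted p = 0.0956). Kcnn4, Kcnn3 and Kcnma1, the large-conductance channel, had log2 fold changes of 0.06, -0.11 and -0.13. The class sum was 3.64 to 4.14 CPM in wildtype and 5.41 to 5.64 CPM in deleted libraries, which do not overlap. Without Kcnn1 and Kcnu1 the sums overlapped, at 2.34, 2.74 and 2.60 CPM in wildtype and 2.69 and 2.35 CPM in deleted libraries.

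Of the auxiliary subunit genes, 6 of 12 were tested and 1 passed. Kcnab2, a cytoplasmic beta subunit of Shaker-type channels, had 0.322, 0.368 and 0.403 CPM in wildtype and 0.707 and 0.848 CPM in deleted libraries (2.11-fold, log2 1.08, SE 0.18, edgeR adjusted p = 0.00305). In its most counted bin alone the log2 fold change was 0.49 (adjusted p = 0.266). Kcnip3, a calcium-binding protein that joins Kcnd channels and also binds DNA, had 2.38, 2.00 and 2.30 CPM in wildtype and 1.38 and 1.94 CPM in deleted libraries (log2 -0.42, SE 0.16, edgeR adjusted p = 0.0712). It passed without deleted 2 (log2 -0.71, adjusted p = 0.0334) and in its most counted bin (log2 -1.17, adjusted p = 0.00362). Kcnab3, a sister gene of Kcnab2, had overlapping values of 2.32, 2.15 and 2.49 CPM in wildtype and 1.97 and 2.27 CPM in deleted libraries (log2 -0.13, SE 0.12). Kcne1l had the most counts of the 6 untested genes, 50 in all.

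Of the RNAs that code for no channel, 2 of 3 were tested and 0 passed by edgeR, DESeq2 or limma-voom, with 0 at an unadjusted p under 0.05. Kcnq1ot1, the antisense RNA that silences neighbouring genes on the paternal chromosome, had 2.50, 3.43 and 4.34 CPM in wildtype and 3.49 and 3.09 CPM in deleted libraries, the deleted values lying within the wildtype range (log2 -0.07, SE 0.21). Kcnmb4os2 had a log2 fold change of -0.33 (SE 0.46). Whether reads were counted by strand is not given in the sources used here, so Kcnmb4os1 and Kcnmb4os2 cannot be told from Kcnmb4 where their exons overlap, nor Kcnq1ot1 from Kcnq1. Among the called genes, Kcnn1 and Kcnt2 each overlap an exon of an opposite-strand gene in GENCODE, and Kcnab2 overlaps a gene on its own strand.

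Levels between genes were compared per kb of GENCODE exon length, which may differ from the exons the authors counted. Kcnab3 had the highest level, 0.811 CPM per kb in wildtype and 0.741 in deleted libraries, followed in wildtype by Kcnj4 at 0.647, Kcnip3 at 0.628 and Kcnk6 at 0.499 CPM per kb. Kcnj10 stood at 0.294 CPM per kb in wildtype and 0.597 in deleted libraries, Kcna7 at 0.358 and 0.536, and Kcnn1 at 0.220 and 0.505. Kcns2, the gene with the largest log2 fold change, went from 0.0385 to 0.143 CPM per kb.

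**Figure D3:**
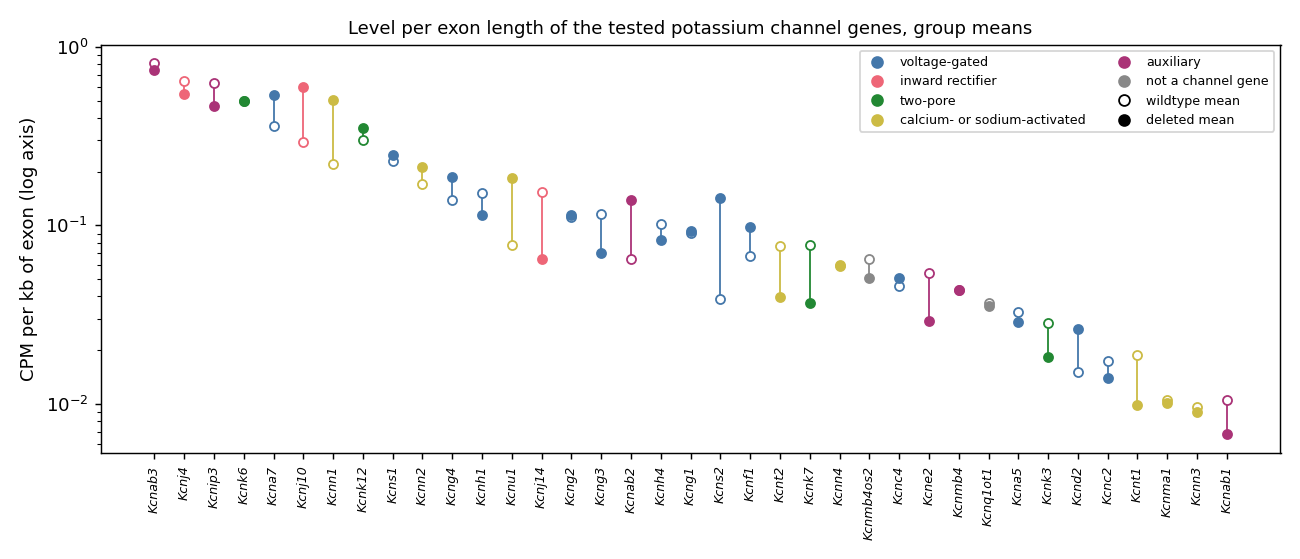
Level in CPM per kb of exon (log axis) of 37 tested genes, ordered by their mean over libraries; open circles are wildtype means, filled circles deleted means, and colours are classes. Kcnab3 stands first at 0.811 CPM per kb in wildtype, and Kcns2 shows the widest gap, 0.0385 against 0.143.

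The deposited counts are given per exon bin, a stretch of exon numbered within its gene, and members held 539 bins. Bins with at least 20 counts in all were compared by their mean CPM. In Kcnn1, log2 ratios of deleted to wildtype ran from 0.91 to 1.67 over 9 such bins, and in Kcnu1 from -0.27 to 1.78 over 7. In Kcnj10, bin 2 carried 97.0% of the gene's counts and had a log2 ratio of 1.03. In Kcns2, bin 3 carried 94.1% and had a log2 ratio of 1.82. Of the bins read in these genes, only 1, in Kcnu1, had a log2 ratio below 0 (-0.27). Ratios ran from 0.52 to 1.72 in Kcnab2 (3 bins) and from 0.58 to 0.59 in Kcna7 (2 bins). In the genes that fell they were -1.37 to -0.43 in Kcng3, -1.26 to -1.17 in Kcnj14 and -3.02 to -0.86 in Kcnt2 (2 bins each). The bins make up the sums by which these genes were called, so their shared direction is no separate support.

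Kcnk12 had bins with opposite signs, 0.39 for bin 1 and -1.79 for bin 2, the latter from 1 and 4 counts in the deleted libraries.

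Unequal use of bins within a gene was tested with edgeR's diffSpliceDGE and a Simes p per gene. It called 0 of the 18 members with at least 2 usable bins, with 2 at an unadjusted p under 0.05, beside 2.76% called among all 13045 genes tested and 0.126% (2 of 1588) among those with symbols. One of those was Kcnk12 (adjusted p = 0.124).

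Genes that work with potassium channels were read from a list of 37, of which 21 had rows and 11 were tested. In that list 2 rose and 1 fell, with a median log2 fold change of 0.18. The share called was near the 31.8% of all tested symbols. Abcc8, the sulfonylurea receptor that forms the ATP-sensitive channel together with Kcnj11, had 0.707, 0.814 and 0.740 CPM in wildtype and 1.38 and 1.48 CPM in deleted libraries, without overlap (log2 0.93, SE 0.13, edgeR adjusted p = 0.00143). Its pore partner Kcnj11 had only 24 counts in all and was not tested. Fxyd5, a regulator of the sodium pump, rose (log2 0.73, SE 0.16, edgeR adjusted p = 0.00905). Cntn2, which anchors Shaker-type channels beside the nodes of myelinated axons, fell by 0.47 on the log2 scale (SE 0.16, edgeR adjusted p = 0.0452). The count for this list was 1 without deleted 1, without deleted 2, or with the most counted bin only.

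Markers of several cell types, not all of them known for these channels, ranged from a few counts in all to several CPM. Fbn1, for example, had means of 5.53 CPM in wildtype and 6.17 CPM in deleted libraries. No marker that had a row was at 0 counts over the 5 libraries, but some were at 0 in all wildtype or all deleted libraries. Such low counts do not show that a marker was present. The 12 ES cell markers looked for had no row under their symbols, so neither the labelled cell type nor the targeted locus could be checked by symbol. Of 7 tested neuron markers, 1 (Elavl3) rose and 1 (Rbfox3) fell, and the 8 with rows summed to 7.62 to 9.67 CPM in wildtype and 9.27 to 9.44 CPM in deleted libraries. Of 3 tested astrocyte and oligodendrocyte markers, 1 (Aldh1l1) rose and 1 (Gfap) fell, with sums over 7 markers of 2.40 to 2.70 and 2.81 to 2.87 CPM.

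In muscle 2 of 7 tested markers rose, near the share of all tested symbols, and the sums over 10 markers overlapped (7.50 to 13.4 CPM in wildtype and 12.9 to 13.1 CPM in deleted libraries). Other lists had sums that did not overlap between the groups. In smooth muscle and fibroblast 4 of 6 tested markers rose (6.78 to 9.58 CPM in wildtype and 9.74 to 10.1 CPM in deleted libraries over 11). All 4 were collagen genes, and the untested markers had 1 to 46 counts in all. The largest part of that sum was Fbn1, which did not pass (means 5.53 CPM in wildtype and 6.17 CPM in deleted libraries). In primitive endoderm 3 of 8 fell (7.89 to 9.07 and 5.11 to 6.44 CPM over 8). In cells resembling the two-cell embryo 7 of 7 rose (2.53 to 2.91 and 15.0 to 15.6 CPM over 7). Of all tested symbols, 18.9% rose and 12.9% fell, but the lists were chosen with earlier results of these data known. Their shares, the 7 of 7 above all, are therefore no test against that background. The part of these lists in the channel results was not tested, and in bulk RNA fewer cells of a type and less RNA per cell cannot be told apart. Between libraries of a group, gene counts differed beyond counting noise, most where wildtype 3 was compared (chi-square per degree of freedom 87.4 and 93.4, against 9.96 for wildtype 1 and 2 and 21.9 for the deleted pair). Without wildtype 3, 10 channel genes passed, all of them among the 11.

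**Figure D4:**
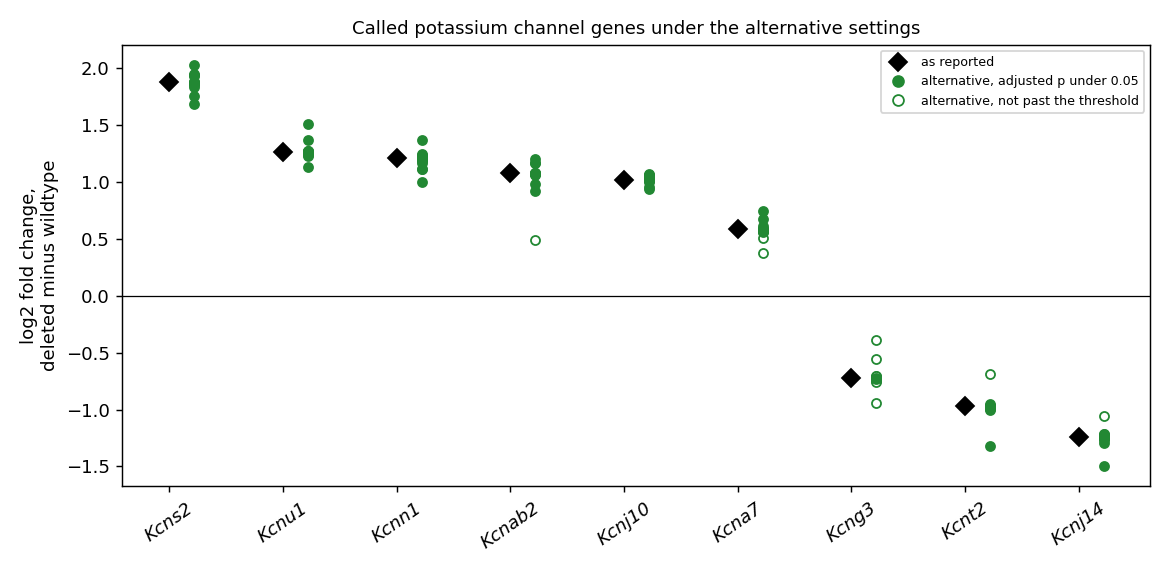
Log2 fold change (deleted minus wildtype) of 9 called genes as reported (black diamonds) and under the alternative settings (green; filled where the adjusted p was under 0.05, open where it was not). No value crosses 0; open circles appear for Kcnab2, Kcna7, Kcng3, Kcnt2 and Kcnj14.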

How the data were processed

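The file holds raw whole-number read counts per exon bin, deposited by the authors for 5 libraries in 1 table; per the submitters' processing notes STAR and the mm9 build were used, and how reads were counted, including strand, is not given in the sources used here. The series text speaks of 3 replicates per condition, and 2 deleted libraries were analysed here. After 56 spike-in names were left out, the 243771 bins of the table were summed per gene. Genes were filtered with filterByExpr (minimum count 10, total 15), scaled by TMM and tested with edgeR 4.0.16 (glmQLFit with its default settings, R 4.3.3), with Benjamini-Hochberg adjustment over all tested genes and a threshold of 0.05. A fit with glmQLFit's robust estimation was tried after the data were seen and is kept as an alternative only. Standard errors are the log2 fold change over the square root of F. DESeq2 1.42.0, limma-voom (limma 3.58.1), other filters and scaling, and leaving out each library were alternatives. GENCODE vM21 gave lengths and sequences; 20 of its 98 symbols that match the rule had no row here and were not analysed. The fits were tested on simulated data. Among 16259 genes, 67, 67 and 66 were changed 1.5-fold, 2-fold and 4-fold. Of these, 32, 30 and 27 were no higher than the members' levels, and 15.6%, 50% and 92.6% of them were recovered. Of all 170 gene calls there 11.8% were false, more than the threshold of 0.05 allows. In the data 39.5% of tested genes were called, a far larger share than was changed in the simulation. These simulated shares therefore do not carry over to the reported fit. The test of exon bin usage recovered 95% of 4-fold changes of a bin, and 21.5% of its calls were false.

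The members, lists and tests were chosen with earlier results of these data known. Every called member was named with its value in each library, then the 3 most counted tested genes of each class and the most counted untested one; other members are named from the full table, and some are not reported here. The minimum of 20 counts for a bin was set after the data were seen.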

Additional observations from a re-analysis of the deposited data

How the results depend on the processing

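The count of 11 channel genes became 9 to 11 over 13 alternatives, but these counts include genes newly called: only 8 of the 11 were kept with the most counted bin (10 called), without deleted 1 (9 called) or without deleted 2 (9 called). DESeq2 and the fit with a replicate block each gave 10, both without Kcng3, and robust estimation, added after seeing the data, gave the same 11. Leaving out 1 library gave 9 to 10 genes, 5 to 7 of them higher and 2 to 5 lower. When 1 wildtype library was left out, 26.2% to 35.5% of all tested symbols were called, against 31.8% in the main fit. Leaving out 1 deleted library leaves 1 in that group. There 45 or 47 members were tested, against 41, and a smaller share of symbols was called. Similar counts therefore do not show that the calls were stable. The calls of Kcns2, Kcnu1, Kcnn1 and Kcnj10 held throughout, while Kcna7, Kcnab2, Kcng3, Kcnt2 and Kcnj14 each lost theirs at least once. The partner list gave 1 gene with the most counted bin, against 3, and 1 to 3 when 1 library was left out. Sodium and calcium channel genes gave 0 to 4 when 1 library was left out, against 4. Exon bin usage gave 1 gene with bins of at least 10 counts in every library, against 0. Some values that did not pass changed sign. Kcnk6 (0.0017) was -0.0038 with RLE normalization, -0.0194 without a low-count filter, -0.0035 in DESeq2, -0.0313 in the most counted bin and -0.1124 to 0.057 when 1 library was left out. Kcnq1ot1 was 0.1608 with the replicate block. Leaving out 1 library gave -0.2633 to 0.145 for Kcnq1ot1 and -1.2899 to 0.2121 for Kcnmb4os2. The replicate block changed no other channel call than Kcng3. Same-numbered libraries did not deviate together (correlations 0.0536 and -0.0539), and only 2 numbers are shared. At 0.00463 to 0.0107 CPM per count, untested genes could not be compared at this depth.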

Other observations

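Voltage-gated sodium and calcium channel genes, relatives of the voltage-gated potassium channels, had 23 rows, of which 14 were tested. In edgeR 1 rose and 3 fell at an adjusted p under 0.05, with a median log2 fold change of -0.13. The share called was near the 31.8% of all tested symbols. Cacna1b, the pore of a presynaptic calcium channel, had 1.34, 1.56 and 1.55 CPM in wildtype and 1.08 and 0.757 CPM in deleted libraries (log2 -0.70, SE 0.18, edgeR adjusted p = 0.0167). Cacng4, an auxiliary subunit of the gamma family, had 0.555, 0.586 and 0.713 CPM against 0.439 and 0.232 CPM (log2 -0.90, SE 0.28, edgeR adjusted p = 0.0339). Scn3a, a sodium channel pore of embryonic brain, was the most counted, with 5.43, 5.85 and 6.34 CPM against 4.84 and 4.53 CPM (log2 -0.33, SE 0.10, edgeR adjusted p = 0.0306). Cacna2d2, an auxiliary subunit, had 2.48, 2.65 and 2.83 CPM against 3.44 and 3.24 CPM (log2 0.33, SE 0.10, edgeR adjusted p = 0.0357). In each of these genes the groups did not overlap, as in 57.0% of all tested symbols. The count of 4 fell to 1 without wildtype 2, to 2 without deleted 1 and to 0 without deleted 2.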
